A study of Mus musculus with 19 samples.

Results

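Drug washout was examined in C2C12 cells, an established line of mouse myoblasts, by setting 3 libraries of cells that had recovered from thapsigargin against 3 libraries of cells still in the drug. Both groups were wild type and had received 100 nM thapsigargin for 6 h. The recovery group was then kept for a further 48 h in medium without the drug, and the thapsigargin 6 h group was harvested at the end of exposure. All 6 libraries were chosen by their labels, out of 19 in 7 groups, and 3 libraries of wild-type cells given the vehicle DMSO for 6 h serve as a further level beside them. Polyadenylated RNA was sequenced in bulk, so the values are averages over a culture, and fewer cells of a kind cannot be told apart from less RNA per cell. No vehicle group was cultured for as long as the recovery group, so the effect of washout and that of the longer time in culture cannot be told apart.

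Thapsigargin blocks SERCA, the pump that fills the endoplasmic reticulum (ER) with calcium. ER chaperones need that calcium, and their failure sets off the unfolded protein response through the sensors PERK, IRE1 and ATF6. PERK phosphorylates the initiation factor eIF2, which slows translation in general but favours the transcription factor ATF4. This branch is shared with other stresses and is called the integrated stress response (ISR). ATF4 pairs with partners such as CEBPG to switch on genes for amino acid supply, redox balance and feedback. Among the feedback genes, Ppp1r15a (GADD34) directs a phosphatase to eIF2 and so allows translation to resume.

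The libraries held 23.59, 38.31 and 37.09 M gene reads in recovery, against 35.51, 31.66 and 36.2 M in thapsigargin 6 h and 33.83, 31.67 and 32.81 M in DMSO 6 h. Recovery replicate 1 stood apart. Mitochondrially encoded RNA took 14.886% of its reads, against 2.234% and 2.046% in the other recovery libraries and 1.411% to 1.884% in the thapsigargin 6 h libraries. Its 50 most abundant genes held 36.79% of its reads, against 13.51% to 17.05% in thapsigargin 6 h, and its correlation of log2 levels with the other recovery libraries was 0.734 and 0.847, while those 2 correlated at 0.965. Libraries also differed within each group in the balance of long and short transcripts. Mean log2 levels were compared between long transcripts (at least 4809 bases) and short ones (at most 2178 bases). Each gene was taken relative to its mean over all 19 libraries. Long minus short was -1.55, -0.12 and -0.79 in recovery replicates 1 to 3 and -0.07, -1.19 and -0.97 in the thapsigargin 6 h replicates. The part of these library differences in single results was not tested, and results that change without recovery replicate 1 are given both ways. The myoblast markers Myod1, Cdh15, Des and Vim were detected in all 6 libraries, with Myod1 at 35.6, 65.1 and 81.8 CPM in recovery and 73.4, 90.6 and 94.9 CPM in thapsigargin 6 h. CPM are counts per 1e6 reads of a library size scaled by the TMM method. The satellite cell factor Pax7 lay between 0 and 2.62 CPM in recovery and between 0.243 and 0.567 CPM in thapsigargin 6 h. The targeted protein, the SERCA pump, is blocked and not deleted, so no transcript checks the labels directly.

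Of 18039 genes tested, 4601 differed between recovery and thapsigargin 6 h at an adjusted p under 0.05 in edgeR's quasi-likelihood test. 2090 of them were higher in recovery (11.6% of the genes tested) and 2511 were lower (13.9%). In 4103 of these genes the 3 recovery libraries lay wholly above or below the 3 thapsigargin 6 h libraries. That count was taken among called genes only, from the same values, so it is no separate check on the calls. The median log2 difference over all genes was 0.04. Scarce RNA made up part of the lower group and of the genes not called. Of the 2511 lower genes, 828 averaged under 1 CPM over the 6 libraries, beside 4289 of the 13438 genes not called. Of these 828, 541 were protein coding, and 241 of all lower genes had no read in any recovery library. Among the higher genes, 208 averaged under 1 CPM and 10 had no read in thapsigargin 6 h. Over the 12714 genes at 1 CPM or more, 14.8% were higher and 13.2% were lower. Without recovery replicate 1 there were 2495 higher and 2861 lower genes, and no gene changed direction among the calls. They held 1651 of the 2090 higher and 2284 of the 2511 lower genes, so the other calls were lost without that library. The balance of directions did depend on scaling. The higher genes made up 45.4% of calls with TMM factors, 32.9% with total counts as the only scaling, 57.8% with offsets for transcript length and GC content, and 35.2% in a fit of the 6 libraries alone. The median of all genes moved to -0.13 with total counts and to 0.18 with the length and GC offsets.

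**Figure D1:**
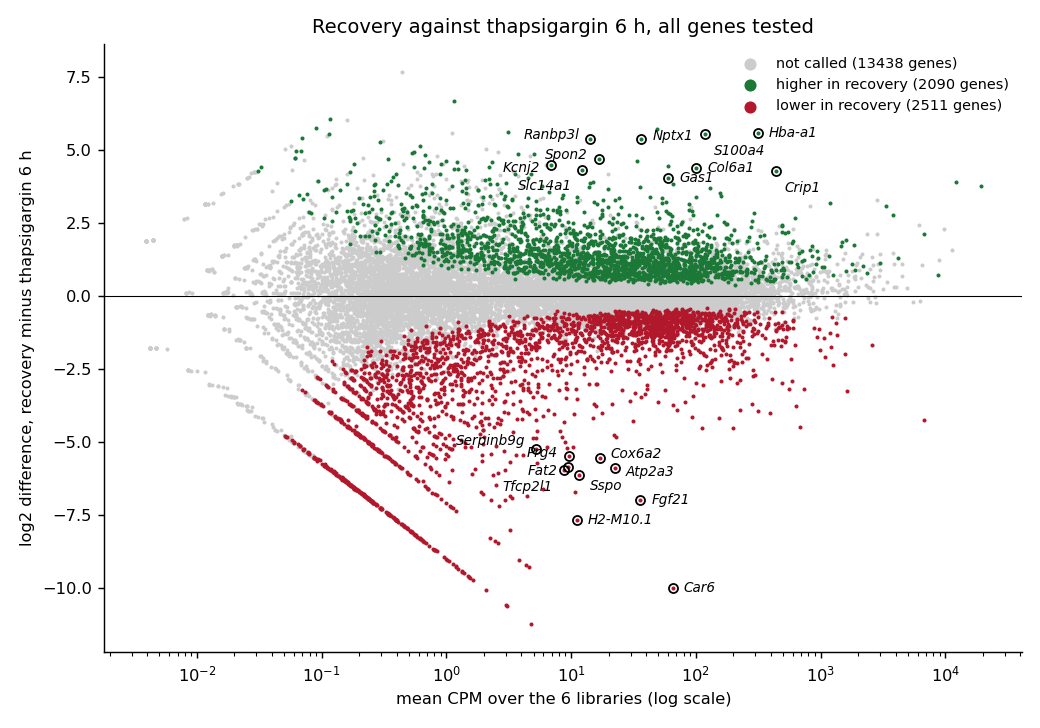
Each point is a gene, with its mean level over the 6 libraries on the x axis (CPM, log scale) and its log2 difference, recovery minus thapsigargin 6 h, on the y axis. The 2090 genes higher and 2511 genes lower in recovery are coloured, circles mark the 20 genes named as extremes, and the straight lower edges on the left are genes with 0 or few reads in recovery.

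The ISR factors themselves lay far below their drugged level 48 h after washout. Atf4 (ENSMUSG00000042406.8, GRCm38 chromosome 15, 80255184 to 80257541), the central transcription factor of the response, had 510, 503 and 650 CPM in recovery, 1549, 2009 and 2055 CPM in thapsigargin 6 h and 683, 608 and 669 CPM in DMSO 6 h. Its log2 difference from thapsigargin 6 h was -1.75 ± 0.23 (standard error of the fit, n = 3 and 3), a 3.37-fold lower level (adjusted p = 4.06e-05, edgeR). The recovery libraries did not overlap the drugged ones. Replicates 1 and 2 lay below the vehicle libraries and replicate 3 among them. Cebpg (chromosome 7, 35046422 to 35056573), the dimer partner of ATF4 named in the study's title, had 38.7, 50.3 and 48.3 CPM in recovery, 191, 164 and 160 CPM in thapsigargin 6 h and 38.6, 38.1 and 37.2 CPM in DMSO 6 h. It fell by 1.91 on the log2 scale (SE 0.21, adjusted p = 7.33e-06).

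Ddit3, which encodes the stress factor CHOP, had 197, 23.8 and 41.6 CPM in recovery, 407, 1869 and 1291 CPM in thapsigargin 6 h and 40.0, 28.0 and 96.7 CPM in DMSO 6 h. It was the least even of these genes. Its log2 difference was -3.77 ± 0.72 (adjusted p = 0.00109) and became -5.19 (adjusted p = 2.4e-05) without recovery replicate 1, the library with 197 CPM. Atf3, a repressor induced by ATF4 and CHOP, had 7.81, 20.5 and 22.1 CPM in recovery, 391, 371 and 386 CPM in thapsigargin 6 h and 18.8, 17.8 and 13.7 CPM in DMSO 6 h. It fell by 4.50 on the log2 scale (SE 0.36, adjusted p = 5.17e-07), a 22.6-fold difference. Cebpb, a CEBP factor of inflammation and adipogenesis, did not pass the test. Its levels were 202, 61.3 and 90.6 CPM in recovery and 129, 347 and 293 CPM in thapsigargin 6 h, which overlap (log2 difference -1.12 ± 0.41, adjusted p = 0.0584). It passed without recovery replicate 1 (-1.76, adjusted p = 0.0028) and without thapsigargin 6 h replicate 1 (-1.44, adjusted p = 0.018).

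Target and feedback genes of ATF4 were also lower, by differing amounts. Asns, asparagine synthetase, had 273, 245 and 262 CPM in recovery against 678, 804 and 710 CPM in thapsigargin 6 h, with 178, 182 and 237 CPM in DMSO 6 h (log2 difference from the drug -1.49 ± 0.18, adjusted p = 2.14e-05). Chac1, an enzyme that degrades glutathione, had 145, 69.5 and 87.6 CPM in recovery against 538, 820 and 810 CPM in thapsigargin 6 h, with 55.2, 40.9 and 75 CPM in DMSO 6 h (-2.84 ± 0.33, adjusted p = 1.35e-05). Trib3 encodes a pseudokinase that restrains ATF4 and CHOP, and it had 38.3, 39.8 and 43.2 CPM in recovery against 440, 562 and 559 CPM in thapsigargin 6 h (-3.69 ± 0.29, adjusted p = 4.74e-07). All 3 recovery libraries of Asns and Trib3 lay above all 3 vehicle libraries, where Trib3 had 20.0, 17.1 and 22.5 CPM. The differences from vehicle were 0.39 (adjusted p = 0.494) for Asns, 0.82 (adjusted p = 0.373) for Chac1 and 1.02 (adjusted p = 0.153) for Trib3, and none of them passed the test.

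**Figure D2:**
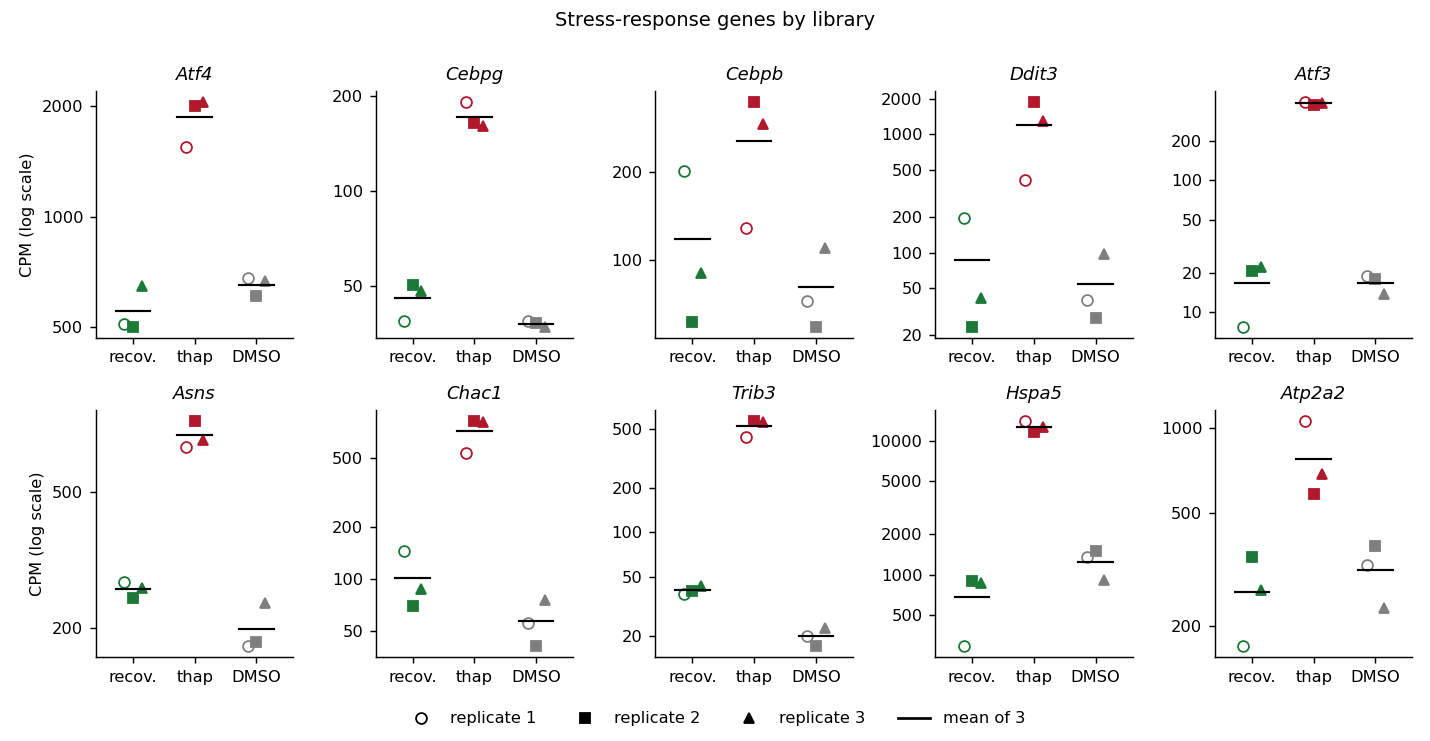
Levels of 10 stress-response genes in each library (CPM, log scale), with recovery on the left, thapsigargin 6 h in the middle and DMSO 6 h on the right; marker shapes give the replicate and bars the mean of 3. In 9 genes the recovery libraries lie below all thapsigargin 6 h libraries, and in Cebpb the groups overlap.

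Across the list of ISR factors and feedback genes, 16 of 20 tested members were lower in recovery and none was higher, with a median log2 difference of -2.42 beside 0.04 over all genes. Without any 1 of the 6 libraries, 15 to 17 were lower. The steepest was Fgf21 (chromosome 7, 45613886 to 45615490), a secreted hormone of metabolic stress, with 0.322, 0.633 and 0.618 CPM in recovery, 51.2, 80.4 and 82.1 CPM in thapsigargin 6 h and 0.122, 0.187 and 0.0395 CPM in DMSO 6 h. It fell by 6.99 on the log2 scale (SE 0.41, adjusted p = 3.2e-08), which is 127-fold. Vldlr, the receptor for very low density lipoprotein, fell by 4.02 (SE 0.53, adjusted p = 4.79e-05), at no more than 4.36 CPM in any thapsigargin 6 h library. Ppp1r15a, the feedback phosphatase subunit introduced above, had 77.6, 25.8 and 36.4 CPM in recovery, 471, 940 and 827 CPM in thapsigargin 6 h and 39.9, 30.5 and 54.4 CPM in DMSO 6 h (-4.01 ± 0.38, adjusted p = 2.03e-06). Against DMSO 6 h, the median of the 20 members was 0.20, and 1 was called, the secreted glycoprotein gene Stc2, which lay below vehicle (-0.95, adjusted p = 0.018) and lost the call without recovery replicate 2 or 3 or DMSO 6 h replicate 3.

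ATF4 dimers bind a composite of a CEBP and an ATF recognition sequence, the CARE element. Promoter windows from 250 bases before to 50 after the gene start (RefSeq, GRCm38.p6) were searched on both strands for its letters TGATGNAA. These letters stood in 3.97% of all 32851 promoters and in 3.01% of the 11784 tested genes with a promoter. They stood in 6 of 17 ISR genes with a promoter, 4 of 13 amino acid synthesis genes, 2 of 8 amino acid transporters and 5 of 12 tRNA synthetases. A match describes the letters and is neither a binding site nor a cause, and a missing match concerns only this window. 4 windows are shown, for the ISR or amino acid synthesis genes that fell furthest among called genes with a match wholly before the start. These windows were thus chosen for holding a match. They are written on the gene's strand, and the capitals mark the match, which reads as the reverse complement TTGCATCA in all 4.
Fgf21 chr7:45615592-45615659: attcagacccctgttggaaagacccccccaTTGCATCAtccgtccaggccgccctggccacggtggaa
Atf3 chr1:191183406-191183473: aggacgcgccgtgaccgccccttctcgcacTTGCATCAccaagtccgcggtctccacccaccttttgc
Vldlr chr19:27216790-27216857: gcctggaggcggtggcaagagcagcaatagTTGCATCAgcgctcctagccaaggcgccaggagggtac
Chac1 chr2:119351019-119351086: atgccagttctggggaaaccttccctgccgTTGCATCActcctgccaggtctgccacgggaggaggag
Fgf21 and Atf3 lie on the minus strand, Vldlr and Chac1 on the plus strand. The match started 139 bases before the RefSeq start in Fgf21, 110 in Atf3, 200 in Vldlr and 193 in Chac1. In Atf3 and Vldlr, and in Hspa5 below, the window lies inside the annotated coordinates of the gene.

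Most tested members of the lists of amino acid synthesis genes and transporters were lower in recovery, and none in these lists was called higher. In amino acid synthesis 11 of 16 tested members were lower and none higher (median log2 difference -1.41). Cth, cystathionine gamma-lyase, the last step of cysteine synthesis, had 2.74, 18.7 and 15.1 CPM in recovery against 194, 116 and 144 CPM in thapsigargin 6 h (-3.62 ± 0.52, adjusted p = 0.000101). Aldh1l2, a mitochondrial folate enzyme, fell by 2.54 (adjusted p = 0.000129) and by 1.89 (adjusted p = 0.00026) without thapsigargin 6 h replicate 1. Pycr1, which completes proline synthesis, fell by 2.40 (adjusted p = 4.76e-07), and its recovery levels of 14.0, 12.9 and 14.7 CPM lay within the vehicle range of 12.9 to 18.1 CPM.

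Of 12 amino acid transporters, 9 were lower and none higher (median -1.56), or 4 lower in the fit of 6 libraries. Slc7a11, the cystine importer, had 2.09, 7.22 and 8.3 CPM in recovery against 79.7, 54.6 and 64.6 CPM in thapsigargin 6 h (-3.47 ± 0.36, adjusted p = 5.13e-06). Its partner Slc3a2, the heavy chain of that importer, had 426, 213 and 279 CPM in recovery against 1999, 3517 and 3293 CPM in thapsigargin 6 h (-3.26 ± 0.30, adjusted p = 1.58e-06). Slc7a3, a carrier of cationic amino acids, fell by 3.20 (adjusted p = 0.00211). The cytosolic tRNA synthetases, which charge tRNAs with amino acids, moved less far, with 12 of 20 lower, none higher and a median of -0.97, or 6 lower in the fit of 9 libraries and 4 in the fit of 6. Tars, the threonyl enzyme, was the most even, at 222, 338 and 329 CPM in recovery against 962, 950 and 956 CPM in thapsigargin 6 h (-1.69 ± 0.17, adjusted p = 4.57e-06). Eprs, the glutamyl-prolyl enzyme, fell by 1.5 (adjusted p = 0.000147). Wars, the tryptophanyl enzyme, fell by 1.54 (adjusted p = 0.0113), by 2.43 (adjusted p = 1.5e-05) without recovery replicate 1, where it had 515 CPM against 129 and 160 CPM in the other recovery libraries, and by 1.27 without recovery replicate 3, which did not pass (adjusted p = 0.052).

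Genes of ER protein folding were lower in recovery. Hspa5 (chromosome 2, 34771970 to 34777547) encodes BiP, the main chaperone of the ER lumen. It had 293, 892 and 865 CPM in recovery, 14122, 11662 and 12845 CPM in thapsigargin 6 h and 1346, 1489 and 906 CPM in DMSO 6 h. The difference was -4.24 ± 0.38 on the log2 scale (adjusted p = 1.15e-06), or 18.8-fold, and every recovery library lay below every vehicle library as well, though that difference did not pass (-0.87, adjusted p = 0.392). Among 23 tested genes for chaperones and folding in the ER, 18 were lower and none was higher, with a median of -1.76. Sdf2l1, a partner of BiP, had 30.2, 22.2 and 33.4 CPM in recovery against 285, 497 and 486 CPM in thapsigargin 6 h (-3.89 ± 0.32, adjusted p = 5.42e-07). Creld2, a disulfide isomerase of the ER, had 109, 91.5 and 128 CPM in recovery against 765, 1175 and 1059 CPM in thapsigargin 6 h (-3.19 ± 0.24, adjusted p = 2.72e-07). Against DMSO 6 h, where Sdf2l1 had 46.1 to 59.5 CPM and Creld2 166 to 194 CPM, the 23 members had a median of -0.45 and none was called.

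Degradation and transport genes of the ER were lower in 17 of 27 tested members and higher in none (median -1.13), or 10 lower in the fit of 6 libraries. Herpud1, an organiser of the degradation complex, had 29.6, 67.7 and 78.2 CPM in recovery against 1358, 1225 and 1377 CPM in thapsigargin 6 h (-4.49 ± 0.34, adjusted p = 2.57e-07). Dnajb9, a co-chaperone that restrains IRE1, fell by 3.90 (adjusted p = 4.05e-05), and Syvn1, the ubiquitin ligase HRD1, fell by 2.88 (adjusted p = 3.09e-05). The rest of the list was milder, and Sec62, a part of the translocon, was 1.03 higher without passing the test.

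The ER stress element, ERSE, is bound by ATF6 with NF-Y. It was searched as CCAAT and CCACG with 9 bases between them, on both strands. Both parts stood together in 0.119% of all promoters and 0.178% of those of tested genes, in 7 of 18 ER chaperone genes with a promoter and in 2 of 22 degradation and transport genes. The related element ERSE-II, ATTGG and CCACG with 1 base between, stood in 0.0365% of all promoters. 4 windows of called ER genes, chosen in the same way, follow on the gene's strand, with both parts of the element in capitals.
Hspa5 chr2:34771995-34772073: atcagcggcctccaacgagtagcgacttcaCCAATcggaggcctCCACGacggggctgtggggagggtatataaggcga
Creld2 chr15:88819490-88819568: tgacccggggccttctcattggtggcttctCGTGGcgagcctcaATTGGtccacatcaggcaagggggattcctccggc
Syvn1 chr19:6046502-6046575: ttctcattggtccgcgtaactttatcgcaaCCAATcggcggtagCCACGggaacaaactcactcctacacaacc
Dnajc3 chr14:118937797-118937875: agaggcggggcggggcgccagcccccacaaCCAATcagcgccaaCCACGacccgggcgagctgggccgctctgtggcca
All 4 genes lie on the plus strand. The element runs along the strand of the gene in Hspa5, Syvn1 and Dnajc3 and against it in Creld2, and Dnajc3, a co-chaperone that inhibits PERK, was among the called genes (-2.39).

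The sensors of the response moved unevenly. Of 11 UPR sensors and eIF2 kinases, 4 were lower and 1 was higher, beside 13.9% and 11.6% of all genes tested. Without thapsigargin 6 h replicate 1 these counts were 2 and 2, while without recovery replicate 1 they were 4 and 2. The fit of 6 libraries gave 1 lower and none higher. Xbp1, whose mRNA IRE1 splices into that of an active factor, had 47.4, 123 and 124 CPM in recovery against 484, 375 and 413 CPM in thapsigargin 6 h (-2.11 ± 0.29, adjusted p = 7.54e-05). Atf6 fell by 2.01 (adjusted p = 0.000755). Ern1, the gene of IRE1, fell by 1.23 (adjusted p = 0.0141), a call lost without thapsigargin 6 h replicate 1 (-0.77, adjusted p = 0.094). Eif2ak2, the eIF2 kinase PKR that answers to double-stranded RNA, was the higher one, at 35.9, 22.2 and 13.5 CPM in recovery against 11.4, 9.97 and 8.02 CPM in thapsigargin 6 h (1.28 ± 0.32, adjusted p = 0.00821).

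Genes of calcium stores and entry were higher in 6 and lower in 6 of 21 (median 0.24), beside 11.6% and 13.9% of all genes tested. With total-count scaling 1 was higher and 4 were lower, and in the fit of 6 libraries none was higher and 2 were lower. The pump genes fell. Atp2a2, which encodes SERCA2, the pump that thapsigargin blocks, had 171, 352 and 269 CPM in recovery, 1058, 585 and 688 CPM in thapsigargin 6 h and 330, 383 and 233 CPM in DMSO 6 h (-1.56 ± 0.27, adjusted p = 0.000502). Atp2a3, the gene of SERCA3, had 0.483, 0.914 and 0.699 CPM in recovery, 44.6, 41.7 and 45.2 CPM in thapsigargin 6 h and 0.122, 0.125 and 0.474 CPM in DMSO 6 h, so it was high in the drugged libraries alone among these 3 groups (-5.90 ± 0.40, adjusted p = 1.16e-07). Among the higher genes, Ryr1, the calcium release channel of skeletal muscle, rose by 1.26 (adjusted p = 0.00241). Stim1, the sensor that opens calcium entry when the store is empty, had 11.9, 20.7 and 14.8 CPM in recovery against 9.48, 6.04 and 6.92 CPM in thapsigargin 6 h (1.08 ± 0.23, adjusted p = 0.00254). Slc8a1, a sodium-calcium exchanger, rose by 1.48 (adjusted p = 0.0258), and the calcium buffer Casq1 fell by 1.87 (adjusted p = 0.0437), both at levels under 3 CPM. The call of Slc8a1 was lost without recovery replicate 2 (1.04, adjusted p = 0.11), without recovery replicate 3 (1.45, 0.055), without thapsigargin 6 h replicate 2 (1.30, 0.09) or without its replicate 3 (1.2, 0.11), and the value was 2.1 without its replicate 1. The call of Casq1 was lost without recovery replicate 1 or 3 or any 1 of the thapsigargin 6 h libraries, at values between -1.96 and -1.52.

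**Figure D3:**
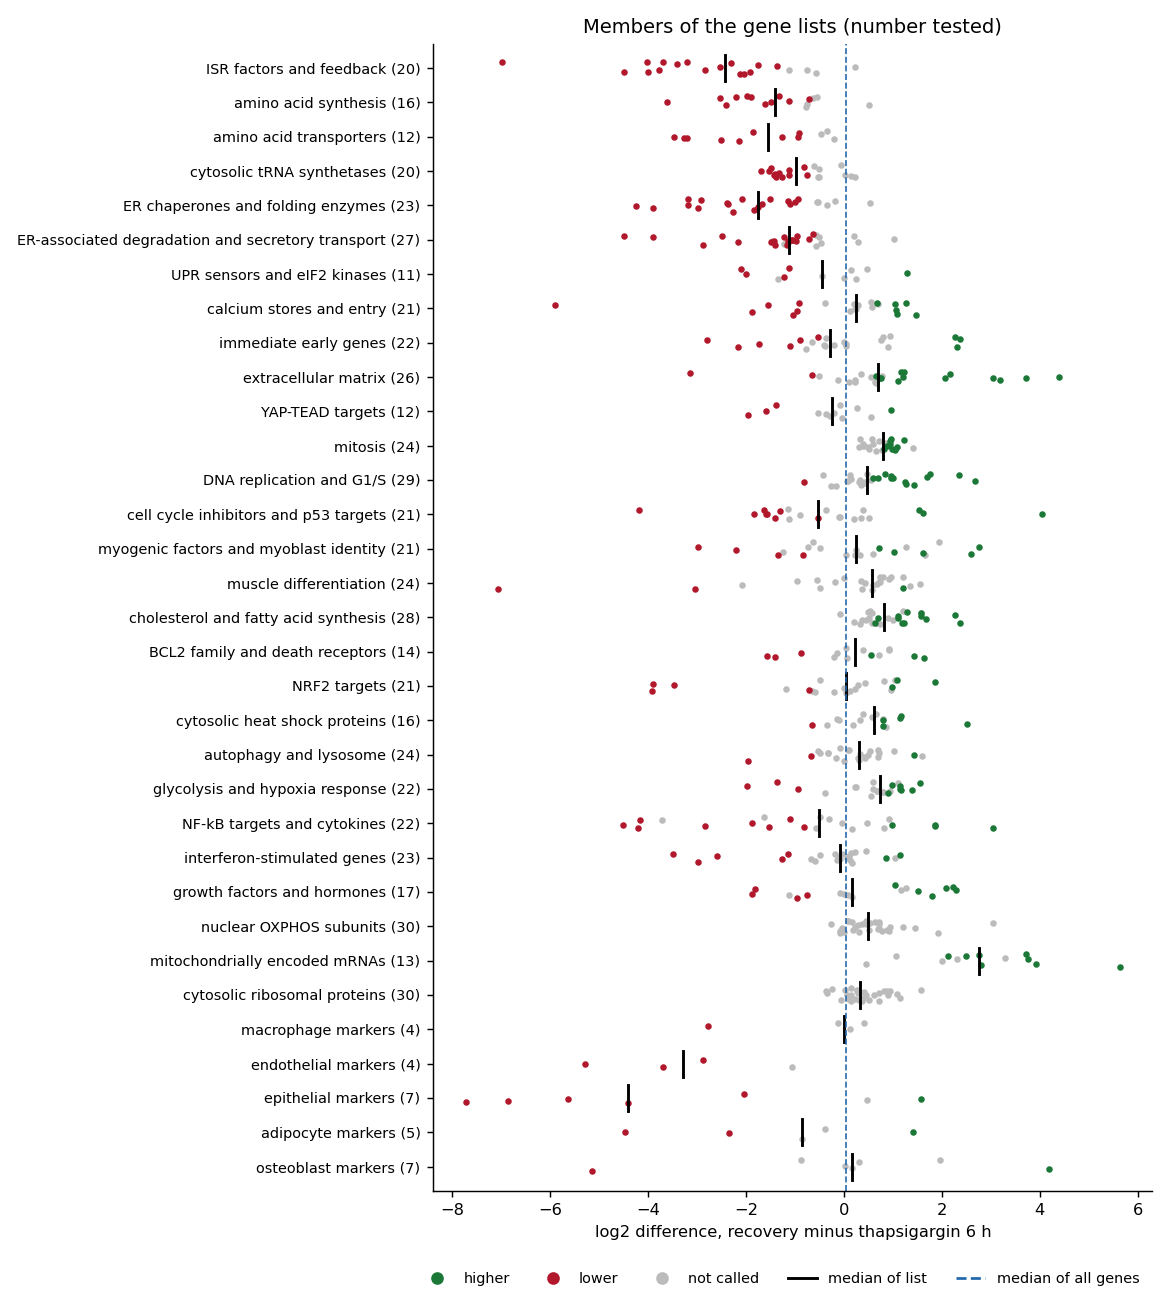
Each point is a tested member of one of 33 gene lists, placed by its log2 difference, recovery minus thapsigargin 6 h, with the list's median as a black bar and the median of all genes (0.04) as a dashed line. Called members are red where lower and green where higher, and the 6 lists at the top, of the stress response, hold 83 lower and no higher members.

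Of the 10 genes that rose furthest, among called genes that averaged at least 5 CPM with no overlap, 3 had their highest level by far in recovery replicate 1. Hba-a1, an alpha-globin gene with a near-identical copy that makes its reads uncertain, had 1703, 47.1 and 98.3 CPM in recovery against 3.58, 22.6 and 12.5 CPM in thapsigargin 6 h (5.58 ± 1.19, adjusted p = 0.00266), and 2.5 (adjusted p = 0.013) without recovery replicate 1. It was 6.26 without thapsigargin 6 h replicate 2. S100a4, a calcium-binding protein of motile cells, had 673, 9.44 and 16.8 CPM in recovery against 1.94, 7.92 and 5.33 CPM in thapsigargin 6 h. Its difference of 5.53 ± 1.33 (adjusted p = 0.00599) became 1.38 (adjusted p = 0.15) without recovery replicate 1. Crip1, a small LIM protein, had 2180, 108 and 206 CPM in recovery against 17.4, 67.4 and 44.6 CPM in thapsigargin 6 h (4.27 ± 0.97, adjusted p = 0.00413), and 1.86 (adjusted p = 0.032) without that library.

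In the other 7 of the 10 highest, every recovery library lay well above every drugged one. Nptx1 (chromosome 11, 119538719 to 119547753), a secreted neuronal pentraxin, had 57.5, 83.7 and 73.0 CPM in recovery, 1.64, 2.01 and 1.53 CPM in thapsigargin 6 h and 47.7, 52.3 and 38.7 CPM in DMSO 6 h (5.37 ± 0.24, adjusted p = 2.88e-09). It was thus low in the drug and above the vehicle range after washout, though the difference from vehicle did not pass the test (0.63, adjusted p = 0.248). Ranbp3l (chromosome 15, 8967949 to 9067335), a nuclear export factor of SMAD proteins, had 36.9, 21.4 and 25.7 CPM in recovery, 0.908, 0.486 and 0.595 CPM in thapsigargin 6 h and 1.68, 1.59 and 1.19 CPM in DMSO 6 h (5.38 ± 0.32, adjusted p = 3.42e-08). Unlike Nptx1 it was low in the vehicle too. Gas1, a membrane protein of growth arrest and hedgehog signalling, had 92.3, 119 and 129 CPM in recovery against 7.77, 6.35 and 6.35 CPM in thapsigargin 6 h (4.05 ± 0.20, adjusted p = 5.24e-09). Spon2, a secreted matrix protein, rose by 4.70 (adjusted p = 2.72e-07), Kcnj2, an inward rectifier potassium channel of muscle, by 4.50 (adjusted p = 5.42e-07), and Slc14a1, a urea transporter, by 4.33 (adjusted p = 7.21e-07).

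Among called genes that averaged at least 5 CPM with no overlap, the 10 that fell furthest had at most 2.5 CPM in any recovery library, under 1 CPM in the vehicle and at least 8.47 CPM in every drugged library. Car6 (chromosome 4, 150187015 to 150201332), a secreted carbonic anhydrase, had 0, 0.164 and 0.134 CPM in recovery, 90.5, 163 and 140 CPM in thapsigargin 6 h and 0.0305, 0.0623 and 0.119 CPM in DMSO 6 h (-9.99 ± 0.55, adjusted p = 1.66e-08). H2-M10.1, a class I histocompatibility gene with close relatives, fell by 7.68 (adjusted p = 6.25e-07). Sspo, a spondin gene, fell by 6.13 (adjusted p = 1.92e-05), the transcription factor Tfcp2l1 had a difference of -5.97 (adjusted p = 9.18e-06) and the large cadherin Fat2 of -5.86 (adjusted p = 1.57e-07). Prg4, the joint lubricant lubricin, fell by 5.49 (adjusted p = 4.39e-05), or 6.10 without recovery replicate 3, and Serpinb9g, a serine protease inhibitor, by 5.22 (adjusted p = 5.42e-07), or 5.93 without recovery replicate 3. Cox6a2, the muscle form of a cytochrome oxidase subunit, had 2.5, 0.117 and 0.108 CPM in recovery against 15.3, 49.2 and 34.4 CPM in thapsigargin 6 h. Its difference of -5.54 ± 0.93 (adjusted p = 0.000393) became -8.15 without recovery replicate 1, -4.90 without replicate 2 and -4.87 without replicate 3.

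Extracellular matrix genes rose after washout in 13 of 26 and fell in 2 (median 0.70), beside 11.6% and 13.9% of all genes tested. There were 7 higher with total-count scaling and 5 in the fit of 6 libraries. Collagen VI led. Col6a1 (chromosome 10, 76708792 to 76726168) had 147, 225 and 205 CPM in recovery, 9.13, 7.99 and 10.3 CPM in thapsigargin 6 h and 76.9, 71.9 and 54.2 CPM in DMSO 6 h (4.39 ± 0.22, adjusted p = 5.24e-09). Its partner chain Col6a2 had 125, 78.4 and 88.4 CPM in recovery against 7.92, 11.5 and 12.4 CPM in thapsigargin 6 h (3.19 ± 0.25, adjusted p = 4.73e-07). Thbs1, thrombospondin 1, had 59.8, 420 and 252 CPM in recovery against 26.3, 12.9 and 16.8 CPM in thapsigargin 6 h (3.71 ± 0.52, adjusted p = 7.43e-05), and 3.06 without recovery replicate 2. Col3a1 (2.16) and Col1a1 (1.16) were also among the 13. The matricellular genes Postn and Tnc were the 2 that fell. Postn fell by 3.14 (adjusted p = 5.62e-05), to at most 1.02 CPM in recovery. Tnc fell by 0.66 (adjusted p = 0.0356), a call lost without recovery replicate 1 (-0.43, adjusted p = 0.071) or any 1 of the thapsigargin 6 h libraries (-0.69 to -0.63).

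Targets of YAP and TEAD, the factors that read cell shape and stiffness, showed no common direction. Of 12 tested, 1 was higher and 3 were lower, beside 11.6% and 13.9% of all genes tested. The higher one was the receptor kinase Axl, with 504, 514 and 375 CPM in recovery against 327, 188 and 200 CPM in thapsigargin 6 h (0.96 ± 0.21, adjusted p = 0.00349). The growth factor Tgfb2 fell by 1.96 (adjusted p = 0.00415) and the adaptor Ajuba by 1.39 (adjusted p = 0.00134). Ccn2, a matricellular protein and a standard YAP target, had 13.5, 20.8 and 20.0 CPM in recovery, 57.3, 50.7 and 56.4 CPM in thapsigargin 6 h and 85.9, 95.7 and 80.4 CPM in DMSO 6 h, and so fell below both other groups (-1.60 ± 0.20 against the drug, adjusted p = 2.44e-05). A second gene of the list was higher without recovery replicate 1.

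Of the cell cycle genes, a minority passed the test, nearly all of them upward. All 24 mitosis genes had a log2 difference above 0 (median 0.79), and 9 of them passed the test, none downward. The count depended on single libraries: 18 passed without recovery replicate 1, 4 without recovery replicate 3 and 5 without thapsigargin 6 h replicate 3. It also depended on the scaling and the libraries fitted, with 2 higher with total-count scaling, 20 with length and GC offsets, 3 in the fit of 9 libraries and 1 in the fit of 6. Nuf2, a kinetochore protein, had 50.7, 99.5 and 100 CPM in recovery against 39.1, 33.3 and 35.4 CPM in thapsigargin 6 h (1.22 ± 0.22, adjusted p = 0.000702). Plk1, the polo kinase, rose by 1.08 (adjusted p = 0.00184), and Ccnb1, cyclin B1, by 1.04 (adjusted p = 0.00606), though its libraries overlapped. In 14 of 20 mitosis genes with a promoter the window held TTTGAA, the letters of the CHR element of late cell cycle genes, beside 17.9% of all promoters.

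Of 29 genes of DNA replication and the G1/S step, 13 were higher and 1 was lower (median 0.46). Over all genes tested 11.6% were higher and 13.9% lower. In this list 6 were higher with total-count scaling and 4 in the fit of 6 libraries, where none was lower. The G1 cyclins gave the largest differences. Ccne1, cyclin E1, had 34.2, 35.9 and 42.6 CPM in recovery, 6.1, 5.14 and 6.46 CPM in thapsigargin 6 h and 57.2, 54.9 and 56.8 CPM in DMSO 6 h (2.67 ± 0.19, adjusted p = 1.57e-07). Ccnd1, cyclin D1, had 210, 264 and 169 CPM in recovery, 53.4, 36.5 and 35.8 CPM in thapsigargin 6 h and 166, 234 and 128 CPM in DMSO 6 h (2.35 ± 0.24, adjusted p = 3.4e-06). Ccnd3 rose by 1.75 (adjusted p = 0.000328). Ccnd2 alone fell, by 0.82 (adjusted p = 0.0226), a call lost without thapsigargin 6 h replicate 1 (-0.48, adjusted p = 0.14) or recovery replicate 3 (-0.67, adjusted p = 0.09).

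Beside 13.9% and 11.6% of all genes tested, cell cycle inhibitors and p53 targets were lower in 8 of 21 members and higher in 3. Gas1 was among the higher, and the median was -0.54. The fit of 6 libraries gave 2 lower and 2 higher. Gadd45a, a growth arrest gene induced by DNA damage and by ATF4, had 11.3, 15.4 and 21.4 CPM in recovery against 197, 350 and 328 CPM in thapsigargin 6 h (-4.18 ± 0.29, adjusted p = 1.48e-07). Its relative Gadd45b fell by 1.63 (adjusted p = 0.00201), and Rrm2b, a p53-induced ribonucleotide reductase subunit, by 1.84 (adjusted p = 0.00177). Sesn1, a p53-induced brake on mTORC1, rose instead, at 18.0, 40.8 and 35.0 CPM in recovery against 12.8, 7.88 and 9.86 CPM in thapsigargin 6 h (1.62 ± 0.26, adjusted p = 0.000296). In the BCL2 family 3 of 14 were higher and 3 lower, beside 11.6% and 13.9% of all genes tested. There were 5 higher without recovery replicate 2, and 1 higher and 1 lower in the fit of 6 libraries. The death-promoting genes Pmaip1 (NOXA) and Bbc3 (PUMA) fell by 1.57 (adjusted p = 0.00213) and 1.41 (adjusted p = 0.000951), and Bid by 0.87 (adjusted p = 0.0319). The protective Bcl2l1 (BCL-XL) had 78.2, 71.5 and 80.3 CPM in recovery against 46.2, 52.9 and 56.5 CPM in thapsigargin 6 h (0.56 ± 0.13, adjusted p = 0.0053). Bok rose by 1.64 (adjusted p = 0.00351) and Bik by 1.42 (adjusted p = 0.0236). Both of these also promote death, so death-promoting members moved both ways. The call of Bik was lost without recovery replicate 1 (1.08, adjusted p = 0.061) or thapsigargin 6 h replicate 1 or 2, and that of Bid without thapsigargin 6 h replicate 1 or 3.

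Myogenic factors moved both ways, with 5 of 21 higher and 4 lower, beside 11.6% and 13.9% of all genes tested. Myf5, which specifies myoblasts, had 8.14, 33.1 and 26.2 CPM in recovery, 272, 129 and 134 CPM in thapsigargin 6 h and 17.2, 25.5 and 14.2 CPM in DMSO 6 h (-2.98 ± 0.43, adjusted p = 9.87e-05). Id3, an inhibitor of myogenic factors, fell by 2.21 (adjusted p = 0.000212). Msc, the repressor MyoR, had 7.97, 9.58 and 11.9 CPM in recovery against 0.933, 1.98 and 1.45 CPM in thapsigargin 6 h (2.76 ± 0.42, adjusted p = 0.000144). Heyl, a Notch target, rose by 2.59 (adjusted p = 2.35e-05). Genes of muscle differentiation mostly did not pass the test, with 1 of 24 higher and 2 lower, beside the same 11.6% and 13.9%. Their median of 0.58, which setting Actn2 to its bound leaves at 0.58, became -0.29 without recovery replicate 1, and 5 were higher without recovery replicate 2. Actn3, a sarcomeric actinin, had 476, 131 and 180 CPM in recovery against 79.7, 135 and 124 CPM in thapsigargin 6 h (1.21, adjusted p = 0.0221), a call lost without recovery replicate 1 (0.46, adjusted p = 0.17) or thapsigargin 6 h replicate 1 (1.02, adjusted p = 0.088) or 3 (1.28, adjusted p = 0.051). Actn2 had no read in recovery and 53 in thapsigargin 6 h, so it was at least 15.7-fold lower with a floor of 3 reads over the group, a limit of 8.45 without recovery replicate 2 and 9.38 without replicate 3. Myh7, slow myosin, fell by 3.04 (adjusted p = 0.0152) at under 1 CPM, by 4.63 without recovery replicate 2 and by 2.37 without recovery replicate 3, and by 2.58 without thapsigargin 6 h replicate 1, where the call was lost (adjusted p = 0.054).

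Of 28 genes of cholesterol and fatty acid synthesis, most of them targets of SREBP factors, 12 were higher and none lower (median 0.81), and leaving out any 1 library gave 8 to 18. The count was 7 with total-count scaling, 22 with length and GC offsets, 5 in the fit of 9 libraries and 4 in the fit of 6. Dhcr7, the last enzyme of cholesterol synthesis, had 28.9, 53.5 and 55.2 CPM in recovery, 9.28, 7.81 and 9.69 CPM in thapsigargin 6 h and 40.4, 37.3 and 30.2 CPM in DMSO 6 h (2.36 ± 0.22, adjusted p = 1.68e-06). Acat2, an acetyl-CoA acetyltransferase, had 230, 110 and 135 CPM in recovery against 26.9, 36.4 and 35.1 CPM in thapsigargin 6 h (2.27 ± 0.27, adjusted p = 1.89e-05). Nsdhl, a sterol dehydrogenase, rose by 1.67 (adjusted p = 0.000439). The letters TCACNCCAC, taken for the sterol element that SREBP binds, stood in 1 of 19 of their promoter windows, beside 1.24% of all promoters.

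Among stress genes outside the ER, cytosolic heat shock proteins were higher in 5 of 16 and lower in 1 (median 0.61). The shares over all genes tested were 11.6% and 13.9%. Of the heat shock genes, 3 were higher without recovery replicate 3 and 2 without thapsigargin 6 h replicate 3. The higher count was 2 with total-count scaling, 11 with length and GC offsets and 1 in the fit of 6 libraries. Hspa1b, an inducible HSP70, had 17.8, 57.7 and 44.3 CPM in recovery against 9.2, 4.93 and 6.75 CPM in thapsigargin 6 h (2.52 ± 0.37, adjusted p = 0.000117). It and Hspa1a (1.17, adjusted p = 0.0273) are near-identical copies, so their reads are uncertain. Cryab, a small heat shock protein of muscle, rose by 1.15 (adjusted p = 0.0294), and Hspb8 fell by 0.66 (adjusted p = 0.0196). These 3 calls were fragile: Cryab lost it without recovery replicate 1 (0.74, adjusted p = 0.13) or thapsigargin 6 h replicate 1 or 3, Hspa1a without recovery replicate 3 or thapsigargin 6 h replicate 1 or 3, and Hspb8 without thapsigargin 6 h replicate 3 (-0.57, adjusted p = 0.08).

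NRF2 targets, the antioxidant genes, were higher in 3 of 21 and lower in 4, near the 11.6% and 13.9% of all genes tested, and 6 and 7 with length and GC offsets. Hmox1, heme oxygenase 1, had 12.7, 50.9 and 52.7 CPM in recovery, 598, 535 and 641 CPM in thapsigargin 6 h and 46.9, 44.0 and 36.7 CPM in DMSO 6 h (-3.93 ± 0.38, adjusted p = 2.74e-06). Gsta1, a glutathione transferase with close relatives, fell by 3.90 (adjusted p = 7.7e-05). Gsr, glutathione reductase, had 90.9, 94.2 and 92.0 CPM in recovery against 46.3, 39.8 and 44.3 CPM in thapsigargin 6 h (1.09 ± 0.15, adjusted p = 5.65e-05). Gstm1 rose by 1.85 (adjusted p = 0.0124), a call lost without recovery replicate 1 (0.87, adjusted p = 0.099) or thapsigargin 6 h replicate 1 (1.54, adjusted p = 0.054). Of 24 autophagy and lysosome genes, 1 was higher and 2 were lower, beside the same 11.6% and 13.9%. There were 4 higher without recovery replicate 1 and 5 without replicate 2. Sqstm1, the cargo receptor p62, had 465, 690 and 776 CPM in recovery against 2412, 2545 and 2598 CPM in thapsigargin 6 h (-1.97 ± 0.23, adjusted p = 1.53e-05). Wipi2 fell by 0.67 (adjusted p = 0.00988), and Tfeb, the master factor of lysosome genes, rose by 1.43 (adjusted p = 0.00288).

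Early-response genes moved both ways. Of 22 immediate early genes, 3 were higher and 6 lower, beside 11.6% and 13.9% of all genes tested. The counts became 5 higher without recovery replicate 1 and 3 lower without thapsigargin 6 h replicate 1. The fit of 9 libraries gave 2 lower and the fit of 6 gave 1. Egr3, a zinc finger factor, had 5.15, 16.5 and 10.6 CPM in recovery against 3.25, 1.46 and 1.56 CPM in thapsigargin 6 h (2.37 ± 0.44, adjusted p = 0.000921), and its relative Egr2 rose too (adjusted p = 0.000532), with 2.9, 7.24 and 5.4 CPM in recovery against 1.24, 1.15 and 0.794 CPM in thapsigargin 6 h. Myc, the growth regulator, had 11.2, 64.2 and 65.1 CPM in recovery, 334, 295 and 353 CPM in thapsigargin 6 h and 95.6, 90.8 and 58.0 CPM in DMSO 6 h (-2.80 ± 0.51, adjusted p = 0.000806). Nr4a3, an orphan nuclear receptor, fell by 2.16 (adjusted p = 0.00469). Klf4 fell by 1.74 (adjusted p = 0.014), a call lost without thapsigargin 6 h replicate 1 (-1.28, adjusted p = 0.073).

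Beside 11.6% and 13.9% of all genes tested, NF-kB targets and cytokines were higher in 4 of 22 and lower in 8 (median -0.52). The fit of 6 libraries tested 19 of them, with 2 higher and 3 lower. Ptgs2, cyclooxygenase 2, had 2.17, 16.1 and 9.49 CPM in recovery, 346, 134 and 166 CPM in thapsigargin 6 h and 15.7, 21 and 9.17 CPM in DMSO 6 h (-4.52 ± 0.56, adjusted p = 2.78e-05), and -5.16 without recovery replicate 2. The cytokine Il6 fell by 4.20 (adjusted p = 1.56e-05) and the chemokine Cxcl10 by 4.17 (adjusted p = 4.7e-05), or 5.23 without recovery replicate 3, both from under 5 CPM. The chemokine Cxcl5 went the other way, with 35.5, 33.7 and 36.6 CPM in recovery, 4.49, 4.31 and 4.0 CPM in thapsigargin 6 h and 7.39, 6.66 and 6.01 CPM in DMSO 6 h (3.05 ± 0.19, adjusted p = 3.65e-08). Il33, an alarmin, rose by 1.86 (adjusted p = 0.000266). Among 23 interferon-stimulated genes, 2 were higher and 5 lower, beside 11.6% and 13.9% of all genes tested. In the fit of 6 libraries none was higher and 2 were lower, and without recovery replicate 2, thapsigargin 6 h replicate 2 or thapsigargin 6 h replicate 3 only 1 was higher and 3 were lower, while without recovery replicate 3 only 1 was higher. Stat2, a signal transducer of interferon, rose by 1.15 (adjusted p = 0.00021) and Irf1 by 0.85 (adjusted p = 0.0273). The call of Irf1 was lost without recovery replicate 2 (0.77, adjusted p = 0.065) or 3 (0.74, 0.087) or thapsigargin 6 h replicate 2 (0.82, 0.075) or 3 (0.80, 0.089). Mx2, an antiviral GTPase, fell by 2.99 (adjusted p = 0.00404) and Usp18, a brake on interferon signalling, by 2.6 (adjusted p = 0.00896), both under 3 CPM. Ifi44 had 3 reads in recovery and 42 in thapsigargin 6 h, a ratio of 12.4 of thapsigargin 6 h over recovery (exact 95% interval 3.98 to 62.8, for counting error alone), with ratios between 8.64 and 20.1 without any 1 library.

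Glycolysis and hypoxia genes were higher in 7 of 22 and lower in 3 (median 0.73), beside 11.6% and 13.9% of all genes tested. The higher count of the list was 11 without recovery replicate 1 and 3 with total-count scaling. It was 13 with length and GC offsets and 2 in the fit of 6 libraries. Pfkm, the muscle phosphofructokinase, had 99.5, 80.3 and 95.8 CPM in recovery against 27.5, 32.9 and 33.4 CPM in thapsigargin 6 h (1.55 ± 0.21, adjusted p = 4.95e-05). The liver form Pfkl rose by 1.16 (adjusted p = 0.0321), a call lost without recovery replicate 1 (0.51, adjusted p = 0.22) or thapsigargin 6 h replicate 1 (0.93, adjusted p = 0.12) or 3 (1.25, adjusted p = 0.064). Egln3, an oxygen sensor, rose by 1.39 (adjusted p = 0.00376). Vegfa, the angiogenic factor, had 76.8, 231 and 167 CPM in recovery against 588, 301 and 334 CPM in thapsigargin 6 h (-1.36 ± 0.34, adjusted p = 0.00685), and Ndrg1 fell by 1.98 (adjusted p = 0.00106). Growth factors and hormones were higher in 6 of 17 and lower in 4, beside the same 11.6% and 13.9%. There were 3 higher without thapsigargin 6 h replicate 3. The fit of 6 libraries gave 2 higher and 1 lower. Hgf rose by 2.29 (adjusted p = 0.012) and Fgf7 by 2.23 (adjusted p = 0.01), each with overlapping libraries. Without thapsigargin 6 h replicate 1 these were 3.13 and 2.96. Both lost the call without thapsigargin 6 h replicate 3 (2.07, adjusted p = 0.057, and 1.95, adjusted p = 0.051), and Hgf also without recovery replicate 2 (1.62, adjusted p = 0.055) or thapsigargin 6 h replicate 2 (1.95, adjusted p = 0.052). Prl2c3, a proliferin with near-identical copies, rose by 2.08 (adjusted p = 2.63e-05). The epidermal growth factor ligands Ereg and Areg fell by 1.87 (adjusted p = 0.00429) and 1.82 (adjusted p = 1.29e-05).

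The level of mitochondrially encoded RNA set 1 library apart. Of 13 mitochondrially encoded mRNAs, 8 were higher and none lower (median 2.76), and without recovery replicate 1 none was higher and the median was 0.04. Their summed level was 280681, 19600 and 20024 CPM in recovery replicates 1 to 3, against 16574, 16474 and 14280 CPM in thapsigargin 6 h. The count was also 0 without thapsigargin 6 h replicate 2 or 3 and 1 without its replicate 1. mt-Nd4, a complex I subunit, had 65014, 1358 and 1744 CPM in recovery against 1230, 1841 and 1458 CPM in thapsigargin 6 h (3.91 ± 1.21, adjusted p = 0.0258), which became 0.04 (adjusted p = 0.98) without recovery replicate 1. mt-Nd5 (3.76 ± 1.33, adjusted p = 0.0483) became -0.36 (adjusted p = 0.8) and mt-Nd4l (5.63 ± 1.69, adjusted p = 0.0219) became 0.24 (adjusted p = 0.91). All 3 calls were also lost without any 1 of the thapsigargin 6 h libraries, and mt-Nd4l was 6.22 and 6.23 without recovery replicates 2 and 3. No nuclear subunit of oxidative phosphorylation, of 30, and no cytosolic ribosomal protein, of 30, passed the test, while leaving out 1 recovery library gave up to 5 higher subunits and up to 1 higher ribosomal protein, and length and GC offsets gave 9 higher subunits. Their medians of 0.48 and 0.33 were -0.02 and -0.56 without recovery replicate 1, and that of the ribosomal proteins was -0.13 with total-count scaling.

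**Figure D4:**
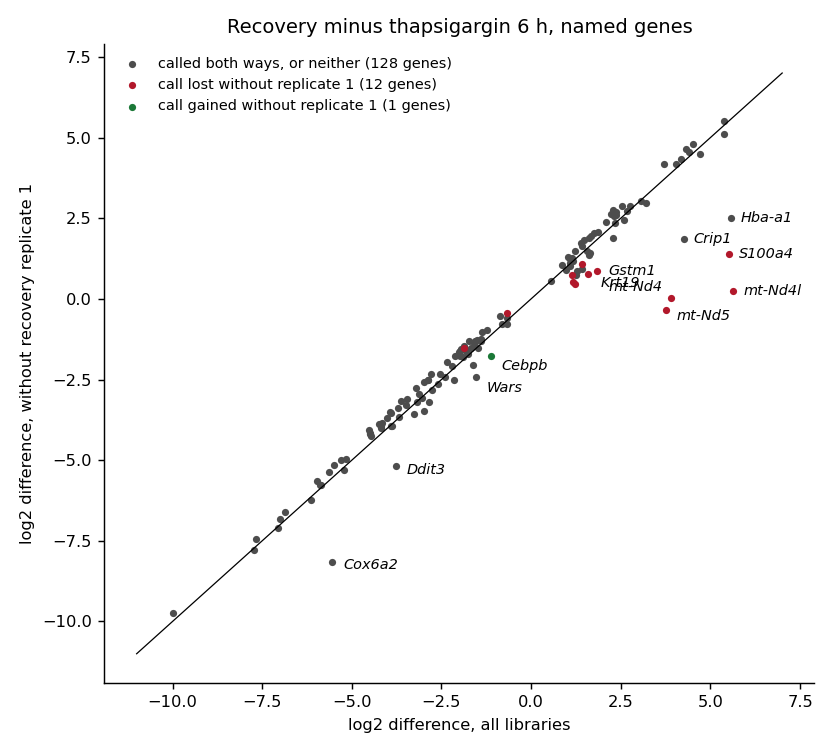
Each point is a named gene, with its log2 difference, recovery minus thapsigargin 6 h, from all libraries on the x axis and without recovery replicate 1 on the y axis; the line marks equal values. Of 141 genes, 128 lie on the same side of the test threshold both ways, 12 lost the call without that library, the mitochondrial genes and S100a4 among them, and Cebpb gained it.

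Markers of other cell types ranged from a few reads to the high levels of Spp1 and Krt19, and several were lower in recovery. Of 4 tested endothelial markers 3 were lower, and the list summed to 0.0805 to 1.08 CPM in recovery, 7.92 to 10.2 CPM in thapsigargin 6 h and 0.467 to 0.916 CPM in DMSO 6 h. Vwf, von Willebrand factor, had 0, 0.141 and 0.215 CPM in recovery against 5.52, 5.31 and 6.32 CPM in thapsigargin 6 h (-5.29 ± 0.59, adjusted p = 1.08e-05). Cdh5 fell by 3.70 (adjusted p = 0.00736), with a difference of -4.71 without recovery replicate 2, and Kdr by 2.87 (adjusted p = 0.00543), or 2.11 without thapsigargin 6 h replicate 1. Pecam1, Tie1 and Emcn did not pass the filter on low counts, and Pecam1 had 20 reads in recovery and 16 in thapsigargin 6 h.

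Of 7 tested epithelial markers 5 were lower and 1 was higher (median -4.41, the same with Esrp1 at its bound). Their sum was 93.5 to 407 CPM in recovery, 61.9 to 129 CPM in thapsigargin 6 h and 84.3 to 163 CPM in DMSO 6 h, most of it Krt19. The keratin Krt18 had 0, 0.0937 and 0.0806 CPM in recovery against 5.62, 10.4 and 10.6 CPM in thapsigargin 6 h (-6.86 ± 0.86, adjusted p = 3.94e-05), and the factor Grhl2 fell by 5.63 (adjusted p = 7.42e-05). Esrp1, a splicing factor, had no read in recovery and 84 in thapsigargin 6 h, at least 24.9-fold lower with a floor of 3 reads over the group, a limit of 13.4 without recovery replicate 2 and 14.9 without replicate 3, and Epcam had no read in any of the 9 libraries. Krt19 rose by 1.58 (adjusted p = 0.012), a call lost without recovery replicate 1 (0.78, adjusted p = 0.082) or thapsigargin 6 h replicate 1 (1.28, adjusted p = 0.053).

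Among 5 tested adipocyte markers 1 was higher and 2 were lower, with a sum of 40.5 to 46.3 CPM in recovery, 84.9 to 98.8 CPM in thapsigargin 6 h and 32.5 to 39.6 CPM in DMSO 6 h. Pparg, the adipocyte nuclear receptor, had 4.19, 16.2 and 14.6 CPM in recovery against 72.1, 51.5 and 54.6 CPM in thapsigargin 6 h (-2.34 ± 0.38, adjusted p = 0.000268). Cebpa rose by 1.41 (adjusted p = 0.00111). Cd36 had 3 reads in recovery and 83 in thapsigargin 6 h, a ratio of 24.6 (exact 95% interval 8.13 to 122), which was 44.1 (7.69 to 1761) without recovery replicate 3. Lep had no read in the 9 libraries. Of 7 osteoblast markers, Dmp1 rose by 4.19 (adjusted p = 2.84e-05), at under 1 CPM, and Alpl had 2 reads in recovery and 90 in thapsigargin 6 h, a ratio of 40.0 (exact 95% interval 10.8 to 335), which was 21.5 without recovery replicate 2 and at least 15.9 without recovery replicate 3. The osteoblast sum was 730 to 2813 CPM in recovery, 1579 to 2158 CPM in thapsigargin 6 h and 2040 to 4101 CPM in DMSO 6 h, nearly all of it Spp1. Of 4 tested macrophage markers Lyz2 fell by 2.77 (adjusted p = 0.0174), a call lost without recovery replicate 2 (-2.5, adjusted p = 0.059). The macrophage sum was 26.3 to 36.3 CPM in recovery, 20.0 to 32.4 CPM in thapsigargin 6 h and 27.0 to 37.7 CPM in DMSO 6 h, and Adgre1 and Itgam had no read in any of the 9 libraries.

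Setting recovery against DMSO 6 h left few differences past the test. 59 of 18039 genes (0.327%) were called, 37 higher and 22 lower, while 1766 had an unadjusted p under 0.05 and DESeq2 called 399. This comparison shares the recovery libraries with the one above, and the 2 are given side by side only. Of the 59, 19 were called again without any 1 of the 6 libraries, and those named here were chosen after their values were seen. Ranbp3l lay 4.23 above vehicle (SE 0.30, adjusted p = 4.43e-06), Cxcl5 2.40 (SE 0.18, adjusted p = 4.63e-06), Gas1 1.71 (SE 0.18, adjusted p = 0.000372) and Col6a1 1.5 (SE 0.19, adjusted p = 0.00239), and all 4 were also above the drugged level. With total-count scaling Gas1 (1.67, adjusted p = 0.0712), Col6a1 (1.49, 0.135), Avil (1.55, 0.0794) and Tnc (-1.64, 0.0988) were not called, and in a fit of the 9 libraries of these 3 groups the called genes were 3, Ranbp3l, Cxcl5 and Ccn2. Avil, an actin regulator, stood between the groups, at 7.57, 6.42 and 8.28 CPM in recovery, 82.2, 96.0 and 96.3 CPM in thapsigargin 6 h and 2.9, 2.49 and 1.7 CPM in DMSO 6 h (1.64 ± 0.23 above vehicle, adjusted p = 0.00439). Kif21b, a kinesin, did likewise, at 25.6, 20.3 and 18.8 CPM in recovery, 75.3, 81.5 and 83.2 CPM in thapsigargin 6 h and 8.79, 6.17 and 8.46 CPM in DMSO 6 h (1.46 ± 0.21, adjusted p = 0.00439). Ccn2 lay 2.27 below vehicle (SE 0.20, adjusted p = 3.17e-05) and Tnc 1.67 below (SE 0.22, adjusted p = 0.00278). Tnc had 123, 236 and 210 CPM in recovery, 312, 289 and 300 CPM in thapsigargin 6 h and 615, 636 and 566 CPM in DMSO 6 h.

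**Figure D5:**
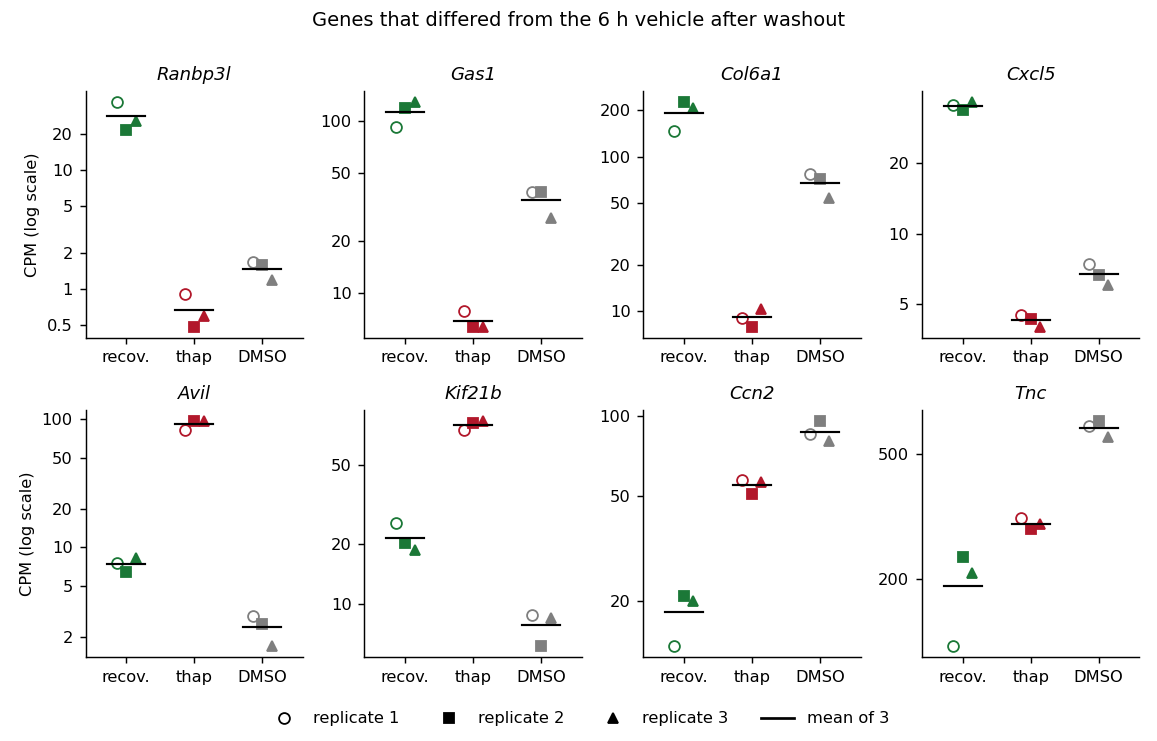
Levels in each library (CPM, log scale) of 8 genes called against DMSO 6 h, with recovery on the left, thapsigargin 6 h in the middle and DMSO 6 h on the right; bars give the mean of 3. Ranbp3l, Gas1, Col6a1 and Cxcl5 lie above both other groups in recovery, Avil and Kif21b lie between them, and Ccn2 and Tnc lie below both.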

How the data were processed

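Whole-number read counts per gene were deposited by the authors for 19 libraries in 7 groups, with 55401 gene rows, and 5 lines of unassigned reads were left out. The submitters' processing notes name Trim Galore, STAR 2.5.3a, bedtools 2.31.0, DESeq2 and the build mm10. How reads were counted, with or without strand, is not given in the sources used here, so overlapping and antisense genes cannot be told apart. From the deposited counts, edgeR 4.0.16 (R 4.3.3) was run on all 19 libraries with TMM factors, filterByExpr by group, 1 mean per group and no block. Its quasi-likelihood test with Benjamini-Hochberg adjustment at 0.05 called genes over the 18039 that passed the filter, and the standard error is the log2 difference over the root of F. CPM were computed here from the deposited counts and TMM-scaled library sizes. Gene names and GRCm38 coordinates came from GENCODE M21, which matched 55141 identifiers, and promoters from RefSeq, of which 468 of 573 for list genes had their bases after the start found in a transcript of the gene.

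Named genes were 10 panel genes, the 10 highest and 10 lowest called genes averaging 5 CPM or more over the 6 libraries without overlap between groups, and from each of 33 lists the called members with the largest change. 1 gene that this rule names is not reported here. The members and lists were chosen with earlier results of these data known. Ppp1r15a, Stc2, Dnajc3, Sec62, Col3a1, Col1a1, the myoblast markers and the genes picked against vehicle lie outside that rule and were chosen after their values were seen. The labels do not say that replicates were separate cultures, so p-values measure the spread between these libraries, which may be technical. Counting intervals are exact at 95% and, like the floor of 3 reads, cover counting error only. Alternatives were DESeq2 1.42.0, other scalings, filters and library sets, a replicate block, and each library left out.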

Additional observations from a re-analysis of the deposited data

How the results depend on the processing

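In every alternative run, no gene was called in the direction opposite to its main call. The 2090 higher genes became 1101 with total-count scaling, 3513 with length and GC offsets, 1097 in a fit of 9 libraries, 494 in a fit of 6 and 1375 in a fit of 5 that also left out recovery replicate 1, which was chosen after seeing the data. The 2511 lower genes became 1379 with 9 libraries and 909 with 6. Leaving out 1 library at a time gave 1452 to 2495 higher and 2053 to 2861 lower genes. The 59 genes called against DMSO 6 h became 17 with total-count scaling, 3 with 9 libraries, 200 with length and GC offsets and 399 with DESeq2, and 22 to 125 without 1 library. With DESeq2 on recovery against thapsigargin 6 h, 2542 genes were higher and 2917 lower. The main fit estimates the spread from all 19 libraries, and the smaller fits from fewer. The fit of 5 called 1776 lower genes, more than the fit of 6. The cause of these changes was not tested. With the replicate block, 1704 genes were higher, 2239 lower and 42 differed from DMSO 6 h. Same-numbered recovery and thapsigargin 6 h libraries deviated from their group means with correlations of -0.818, -0.919 and -0.318. For libraries with different numbers the correlations ranged from -0.77 to 0.915. Deviations from a mean of 3 libraries are tied to each other, so these values cannot tell whether the numbers pair the libraries. mt-Nd5 reversed to -0.36 without recovery replicate 1 and to -0.35 in the fit of 5, and reached 4.32 without replicate 2. Of 141 named genes, 18 lost the call with total-count scaling, 52 with 6 libraries and 4 to 17 without 1 library other than by reversal. Depth limits scarce genes: 3 reads correspond to 0.242, 0.0703 and 0.0806 CPM in recovery and 0.0756, 0.104 and 0.085 CPM in thapsigargin 6 h.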
